A study of Mus musculus with 2 samples.

Results

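*Ubd* (ubiquitin D) encodes FAT10, a ubiquitin-like protein modifier. It was followed as 1 of the 32285 genes counted in 2 droplet-based single-cell RNA-seq libraries of the mouse temporomandibular joint (TMJ). Barcodes were kept with at least 500 detected genes, at most 10% mitochondrial UMIs and at most 1% hemoglobin UMIs, where a UMI (unique molecular identifier) marks 1 captured mRNA molecule. That left 2667 of 7671 PBS barcodes and 4014 of 5709 CFA barcodes. An endothelial barcode was 1 with at least 3 UMIs summed over *Pecam1*, *Cdh5*, *Kdr* and *Flt1*, which gave 991 PBS and 1450 CFA barcodes. Of these, 11 PBS and 105 CFA barcodes held a *Ubd* UMI. The gene was chosen for its difference between CFA and PBS endothelium, and the split of cells by a *Ubd* UMI uses the gene itself, so all of these values are descriptions with no test.

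The mice were wild-type C57BL/6 females, 8 to 10 weeks old by the labels. By the study's methods, both TMJs were injected at 8 weeks with 10 µL of PBS, or of complete Freund's adjuvant (CFA, killed mycobacteria in oil, a strong inflammatory agent) at 5 mg/mL. Joints were collected 3 weeks later and 3 mice were pooled for each library, so each condition was 1 library with no replicate. By these methods the mice were older at collection than the 10 weeks of the labels. The dissected tissue took in muscle, ligament and temporal bone beside the condyle and disc, and CD45+ immune cells were reduced with magnetic beads before loading, so the immune cells that remained do not reflect their share in the joint.

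The kept barcodes had a median of 7022 UMIs in the PBS and 6509.5 UMIs in the CFA library. The hemoglobin limit removed many more barcodes from the PBS library, where 4554 barcodes exceeded it, than from the CFA library, where 779 did. The libraries shared 10 barcode sequences among the deposited barcodes and 2 among those kept, and neither of the 2 held a *Ubd* UMI. Levels are CPM, the UMIs of the gene for every 1000000 UMIs summed over a set of cells. Their 95% intervals are exact Poisson intervals, those of ratios are the matching exact conditional intervals, and those of shares of cells are exact Clopper-Pearson intervals. All of them cover counting error only, not the spread among cells or mice.

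FAT10 carries tandem ubiquitin-like domains and can be joined to other proteins. UBA6 activates it, UBE2Z is its conjugating enzyme, and a protein that carries FAT10 can be degraded by the proteasome, a step that NUB1 speeds up. The gene lies in the major histocompatibility complex (MHC) region, and interferon-γ and TNF are its best-known inducers. Venules, the vessels just after the capillaries, are where leukocytes mostly leave the blood in inflamed tissue, and their endothelium carries the adhesion molecules and chemokines that serve this exit.

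In the GENCODE annotation of GRCm38, *Ubd* (ENSMUSG00000035186) lies on the plus strand at chr17:37193892-37196095. Its annotated transcript has 2 exons of 81 and 850 bases, which hold 486 coding bases before the stop codon. The 250 bases before its start, at chr17:37193642-37193891 of RefSeq's GRCm38.p6, are printed because *Ubd* is described here beside interferon and NF-κB target genes. Capitals mark the matches of an IRF half-site and of the κB consensus.

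Ubd promoter, plus strand: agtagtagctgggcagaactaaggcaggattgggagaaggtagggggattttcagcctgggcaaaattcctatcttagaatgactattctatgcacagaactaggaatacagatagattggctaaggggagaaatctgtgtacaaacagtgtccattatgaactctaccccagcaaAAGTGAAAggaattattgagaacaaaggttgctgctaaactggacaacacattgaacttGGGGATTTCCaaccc

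The IRF half-site AANNGAAA matched 74 bases before the start, and 21.3% of 32851 promoters of the same RefSeq table held it on either strand in windows of equal length. The κB consensus matched 15 bases before the start and was held by 7.25% of these promoters. Its exact letters in *Ubd*, GGGGATTTCC, stood in 31 promoters, or 0.0944%. These letters were read from *Ubd* itself and can be no more common than the consensus, so the low share is not a result. The interferon-γ activation site TTCNNNGAA, held by 7.02%, and the core of the interferon-stimulated response element (GAAA, any 2 bases, GAAA), held by 2.98%, had no match in this window. A match of letters is a description and shows no binding.

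Endothelial barcodes of the CFA library had a higher *Ubd* level than those of the PBS library. They held 2727 *Ubd* UMIs, or 213 CPM (205 to 221), whereas PBS endothelial barcodes held 65, or 7.01 CPM (5.41 to 8.94). The ratio was 30.4 (23.7 to 39.4). It was 48.7 without the barcode with the most *Ubd* UMIs in each library and 123 without barcodes of 10 or more UMIs of fibroblast, mural and tenocyte markers. The share of endothelial barcodes with a *Ubd* UMI was 7.24% (5.96 to 8.70) in CFA and 1.11% (0.555 to 1.98) in PBS. CFA endothelial barcodes were the shallower of both sets, with a median of 4549.5 against 5923 UMIs. With each barcode thinned to 1000 UMIs, which left out 129 CFA and 55 PBS barcodes of all those kept, the shares were 3.56% (50 of 1405) and 0.205% (2 of 975). Outside the endothelial barcodes, *Ubd* stood at 3.35 CPM in CFA, with 106 UMIs in 47 of 2564 barcodes, and at 0.279 CPM in PBS, with 5 UMIs in 3 of 1676 barcodes. At the edge of the rule, CFA barcodes with exactly 2 endothelial UMIs had 7.21 CPM, with a *Ubd* UMI in 8 of 146, and those with exactly 3 had 13.4 CPM, with a *Ubd* UMI in 7 of 81. In PBS, 0 of 96 and 1 of 49 such barcodes held a *Ubd* UMI.

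Cells were also clustered without *Ubd* and named from canonical markers, with "-like" added because the names were rebuilt from the counts. Among the 12 classes of at least 50 CFA cells, endothelial-like cells had the highest level, 380 CPM (366 to 395), with a *Ubd* UMI in 86 of 1052 cells, or 8.17% (6.59 to 10.0). Mural-like cells, the contractile cells around vessels, followed at 27.0 CPM (20.7 to 34.7), and chondrocyte-like cells at 7.27 CPM (3.98 to 12.2). These 3 levels did not overlap in their intervals. From chondrocyte-like cells down, each class overlapped the next in the order: fibroblast-like 6.26 CPM, B cell-like 3.32, macrophage-like 2.90, osteoclast-like 2.23, tenocyte-like 1.43, neutrophil-like 1.33 and Schwann-like 1.09. Erythroid-like and satellite-like cells held 0 *Ubd* UMIs, and the limit that 3 counts give is 3.40 and 4.99 CPM.

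Schwann-like cells, the glia of nerves, were taken for the background share. In CFA, 2 of 377 Schwann-like cells held a *Ubd* UMI, or 0.531% (0.0643 to 1.90), at a median of 3433 UMIs against 4375 in endothelial-like cells. Among the CFA classes above, only erythroid-like and satellite-like cells had a lower share. It was 4.32% in osteoclast-like cells (12 of 278, median 31561 UMIs) and 2.97% in macrophage-like cells (9 of 303, median 12122 UMIs). In PBS the level was 10.9 CPM (8.40 to 13.9) in endothelial-like cells, where 10 of 753, or 1.33% (0.639 to 2.43), held a UMI. Among the 9 other PBS classes of at least 50 cells, erythroid-like cells held 3 UMIs in 1 cell and the remaining 8 held 0. The PBS Schwann-like cells had 0 of 308, which allows a share of up to 0.974%.

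**Figure D1:**
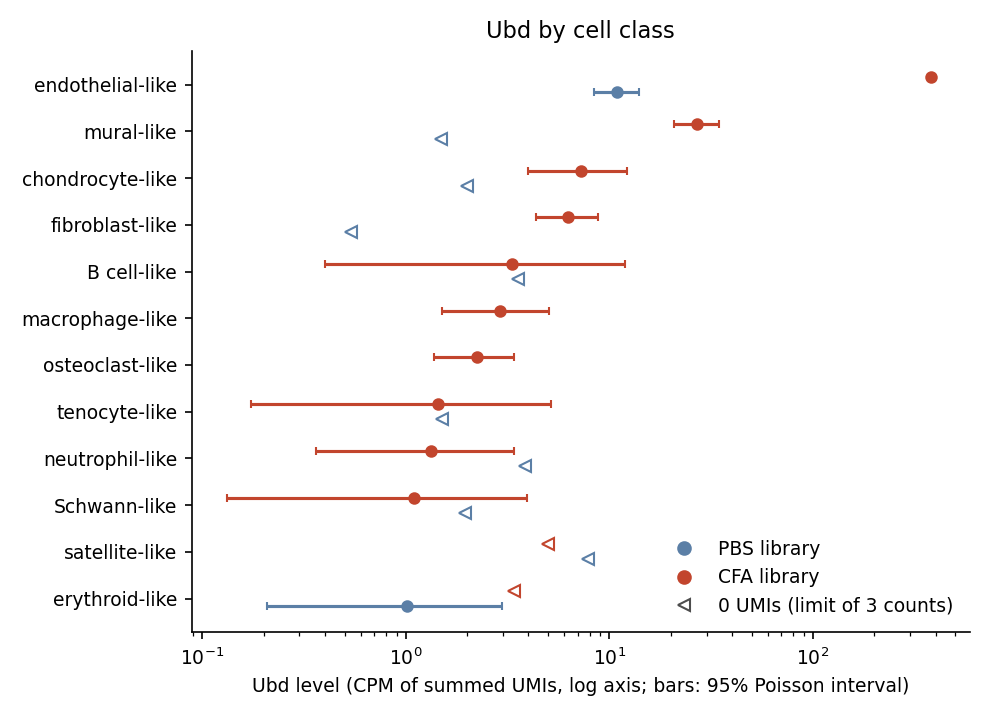
*Ubd* level of each cell class as CPM of summed UMIs on a log axis, with PBS in blue, CFA in red and 95% Poisson intervals as bars. Open triangles mark classes with 0 UMIs at the limit that 3 counts give, and classes under 50 cells in a library are not drawn. CFA endothelial-like cells stand at 380 CPM, mural-like cells at 27.0 CPM and all other classes below 10 CPM.

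The levels of the next 3 CFA classes rested on few barcodes. Of the 61 UMIs in mural-like cells, 58 lay in 1 barcode, which also held 73 UMIs of the endothelial markers and 148 of the venular markers. Of the 14 in chondrocyte-like cells, 13 lay in 1 barcode with 59 endothelial UMIs. Of the 34 in fibroblast-like cells, 24 and 6 lay in 2 barcodes with 0 UMIs of the 4 endothelial genes. These 2 held 56 and 79 UMIs of the adipocyte markers (*Adipoq*, *Plin1*, *Cidec*, *Lep*) and 85 and 64 UMIs of the venular list. In all, 5 CFA barcodes held at least 10 adipocyte-marker UMIs and these 2 were the only ones of them with *Ubd*, whereas 0 of 10 such PBS barcodes held *Ubd*. The mural-like, chondrocyte-like and both fibroblast-like barcodes were among the 2% of CFA barcodes with the highest doublet scores. Without barcodes of 3 or more endothelial UMIs in the other classes, the next class was fibroblast-like, and the ratio of endothelial-like cells to it was 58.4 (41.7 to 84.5) in place of 14.1 (10.9 to 18.4).

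Within the endothelium, *Ubd* lay almost wholly in 1 cluster. Of the 5 endothelial-like clusters, 1 carried the venular markers *Plvap*, *Vcam1*, *Selp*, *Ackr1*, *Lrg1* and *Nr2f2* beside all 7 endothelial markers, and is called *Plvap* venular-like. Its 180 CFA cells held 2603 *Ubd* UMIs, or 971 CPM (935 to 1010). They were 4.48% of the kept CFA cells and held 91.9% of the library's *Ubd* UMIs. A *Ubd* UMI was present in 74 of them, or 41.1% (33.8 to 48.7), and 55 cells held 5 or more. The level was 5.52 CPM in *Car4* capillary-like cells, with 5 of 219 cells positive, and 2.64 CPM in arterial-like cells, with 3 of 172. The endothelial-like clusters without a subtype, numbered 0 and 7, stood at 3.58 and 1.46 CPM. Intervals of these 4 groups overlapped one another, and none overlapped that of the venular-like cells. Their shares of cells with a *Ubd* UMI also overlapped the Schwann-like background in their intervals.

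Depth differed between these groups. Venular-like CFA cells had a median of 12431 UMIs, *Car4* capillary-like cells 4511 and arterial-like cells 5241.5. Thinned to 1000 UMIs, 41 of 180 venular-like cells, or 22.8%, still held a *Ubd* UMI, against 2 of 219 *Car4* capillary-like and 0 of 172 arterial-like cells. A further cluster led by endothelial genes, number 13, had a median of only 1184.5 UMIs in CFA and was not named. It held *Ubd* in 19 of 190 CFA cells, or 10.0% (6.13 to 15.2), at 157 CPM (119 to 205).

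**Figure D2:**
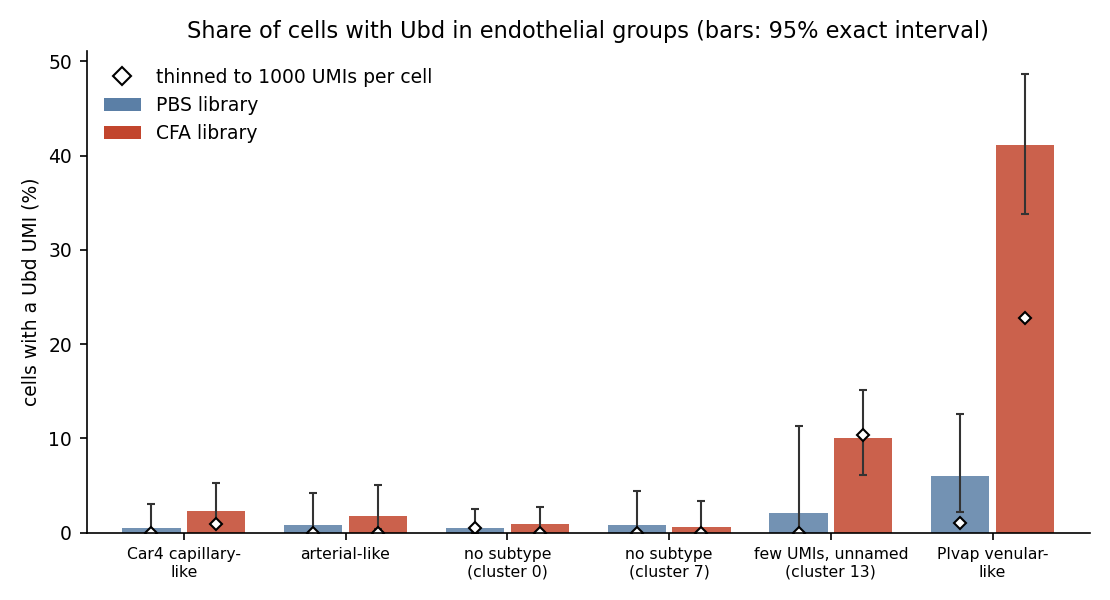
Share of cells with a *Ubd* UMI (percent) in each endothelial group, PBS in blue and CFA in red, with 95% Clopper-Pearson intervals as bars and the share after thinning to 1000 UMIs as diamonds. The CFA *Plvap* venular-like bar reaches 41.1%, with its diamond at 22.8%, and the bars of the groups other than cluster 13 and the PBS venular-like cells stay below 3%.

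The PBS library had 100 venular-like cells, and *Ubd* lay mostly there too. They held 60 of the library's 70 *Ubd* UMIs, or 43.7 CPM (33.4 to 56.3), in 6 cells with 28, 14, 7, 6, 3 and 2 UMIs. The share was 6.00% (2.23 to 12.6). Thinned to 1000 UMIs, 1 of 100 cells kept a *Ubd* UMI. The other PBS endothelial-like groups held 1 UMI each, in 1 of 182 *Car4* capillary-like cells, 1 of 129 arterial-like cells and 1 cell in each cluster without a subtype. Within venular-like cells the CFA to PBS ratio was 22.2 (17.2 to 29.2).

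The *Ubd*-bearing PBS venular-like cells also held RNA of other cell types. All 4 with 5 or more *Ubd* UMIs held at least 10 UMIs of the fibroblast, mural and tenocyte markers, with a median of 268.5, and 3 of the 4 were in the top 5% of doublet scores. Of the 55 such CFA cells, 9 held at least 10 of these stromal UMIs, the median was 5, and 0 were in the top 5%. The fibroblast list summed to 1120 CPM in PBS and 72.8 CPM in CFA venular-like cells. Without venular-like cells of 10 or more stromal UMIs, the level was 874 CPM in CFA (64 of 167 cells positive) and 5.33 CPM in PBS (5 UMIs in 2 of 81 cells), a ratio of 164 (70.2 to 506). Without the cell with the most *Ubd* UMIs in each library it was 37.3 (26.4 to 54.7), and without the top 5% of doublet scores 37.6 (26.7 to 54.7). The CFA level was 874 CPM or more in each of these sets, whereas most of the PBS level lay in the 4 cells.

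Among CFA venular-like cells *Ubd* was spread very unevenly. It was at 0 in 106 cells, at 1 in 6, at 2 to 4 in 13, at 5 to 19 in 21 and at 20 or more in 34. The highest cell held 237 UMIs, the median over the 74 positive cells was 16.5, and the 10 highest cells held 47.4% of the cluster's *Ubd* UMIs. The variance over cells was 1105 for a mean of 14.5, a Fano factor of 76.4. Per cell, the positive cells had a lower quartile of 248 CPM, a median of 1076, an upper quartile of 2175 and a maximum of 7012.

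Positive cells were deeper than negative cells, with a median of 20414 against 8022.5 UMIs. The depths of both kinds overlapped, and among CFA venular-like cells with at least 10000 UMIs, 68 of 108, or 62.96%, held *Ubd*. Among PBS venular-like cells of that depth, 6 of 55, or 10.9%, held it.

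**Figure D3:**
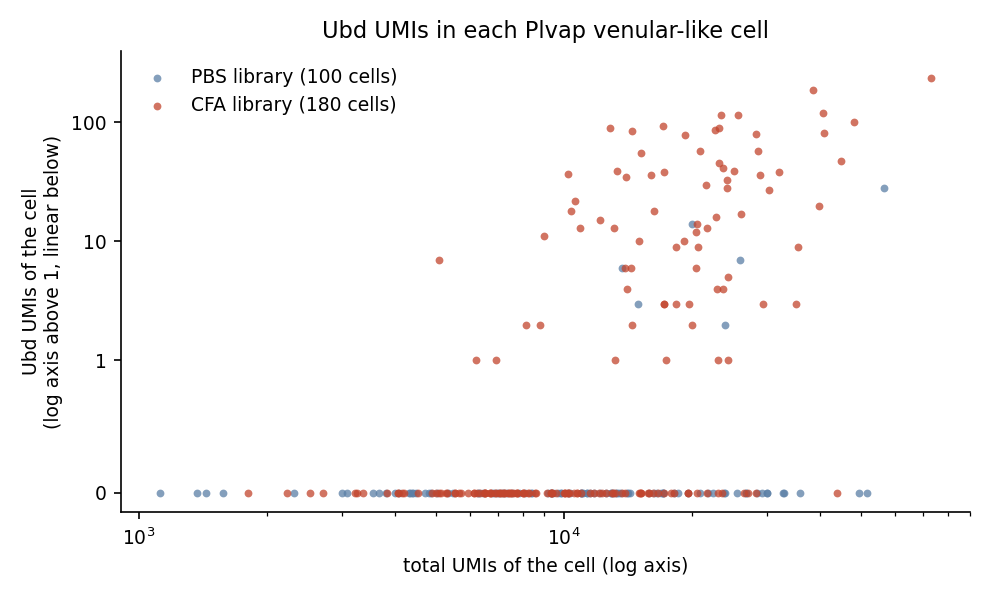
*Ubd* UMIs against total UMIs in each of the 100 PBS (blue) and 180 CFA (red) *Plvap* venular-like cells, total UMIs on a log axis and *Ubd* UMIs on a log axis above 1 and a linear one below. CFA cells at 20 or more *Ubd* UMIs overlap in depth with CFA cells at 0, of which the deepest has 43926 UMIs. The cells with 237, 100 and 47 *Ubd* UMIs are deeper than that, at 73087, 48060 and 44905 UMIs.

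Barcodes with more *Ubd* UMIs were more often venular-like. In CFA endothelial barcodes the venular-like share was 23.1% of barcodes with 1 UMI, 65.0% at 2 to 4, 87.5% at 5 to 19 and 97.1% at 20 or more. Of the 105 positive barcodes, 74 were venular-like, 5 *Car4* capillary-like, 3 arterial-like and 4 endothelial-like without a subtype, and the other 19 were not in an endothelial-like cluster, 10 of them in cluster 13.

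CFA endothelial barcodes with and without *Ubd* were then compared across genes, with *Ubd* left out of the totals. Venular-like cells were 74 of the 105 barcodes with *Ubd* and 106 of the 1345 without. Of those without, 379 were not in an endothelial-like cluster, against 19 of those with, so both sets also differed in their mix of cells. Of 8686 genes with at least 20 UMIs in each set, 485 (5.58%) were at least 2-fold higher in the barcodes with *Ubd* and 600 (6.91%) at least 2-fold lower, and the median ratio of all genes was 1.03. Positive barcodes were deeper, with a median of 17153 against 4311 UMIs, and had a median of 2.27% against 0.798% mitochondrial UMIs. The 15 highest ratios began with a venular receptor and a chemokine. *Ackr1*, a chemokine-binding receptor of venules, stood at 334 CPM with and 12.5 CPM without, a ratio of 26.6 (22.1 to 32.3). *Cxcl9*, a chemokine that draws CXCR3-bearing T cells and is induced by interferon-γ, stood at 1642 and 64.6 CPM, a ratio of 25.4 (23.4 to 27.6). *Cxcl10*, which binds the same receptor, closed the 15 highest at 9.56 (8.48 to 10.8).

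Between them came *Fjx1* (24.6), *Stab2* (23.03), *Ehd3* (17.04), *Moxd1* (16.5), *Gm30382* (16.2), *Ccdc60* (15.1), *Serpina3f* (14.9), *Fam167b* (14.7), *Serpina3g* (11.9), *F830016B08Rik* (11.7), *Meox1* (10.98) and *Rhbdl2* (10.9). *Ehd3* takes part in endosome traffic, *Meox1* is a homeobox factor, and *Serpina3f* and *Serpina3g* are serine protease inhibitors. *Stab2*, a scavenger receptor of sinusoidal endothelium, rested on 3 barcodes, of which 1 held 81.1% of its UMIs. Of the 15, 12 had a promoter in the RefSeq table, and the κB consensus was in 4 of the 12 (7.25% of all promoters), the IRF half-site in 3 (21.3%), TTCNNNGAA in 4 (7.02%) and the response element core in 1 (2.98%). The 4 with TTCNNNGAA included both *Serpina3f* and *Serpina3g*, and these small counts were not tested.

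The 10 lowest ratios were *Spp1* (0.03), *S100a9* (0.04), *S100a8* (0.04), *Ngp* (0.05), *Camp* (0.06), *Dock2* (0.08), *Coro1a* (0.08), *Mir142hg* (0.09), *Cacna1d* (0.09) and *Cers6* (0.09). Most of these are genes of neutrophils or other leukocytes. The barcodes without *Ubd* held more RNA of such cells: the 7 neutrophil markers summed to 137 CPM with and 3056 CPM without *Ubd*, the 7 osteoclast-like markers to 344 and 2971 CPM, and the 6 monocyte markers to 40.5 and 694 CPM. The 7 venular markers went the other way, at 3306 against 465 CPM, and all 7 were at least 2-fold higher. The part of these lists in the ratios was not tested.

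The same split was then made within the CFA venular-like cells. Of 6716 genes, 124 (1.85%) were at least 2-fold higher in the 74 cells with *Ubd* than in the 106 without and 255 (3.8%) at least 2-fold lower, with a median ratio of 0.979. The venular markers still differed, at 3858 against 2445 CPM, with 1 of 7, *Ackr1*, past 2-fold. The capillary markers went the other way, at 2250 against 3259 CPM, with *Cd36* at 0.46, and of the arterial markers *Gja5* had 2.15. The neutrophil markers were lower as well, at 120 against 220 CPM, with *S100a9* at 0.48. The 6 mural markers summed to 282 against 138 CPM, but only 2 had enough UMIs, *Mcam* at 2.48 and the other at 0.61. Over all endothelial barcodes *Mcam* had 4.57, whereas *Myh11*, *Acta2* and *Tagln* were at least 2-fold lower. The fibroblast markers stood at 78.1 against 65.1 CPM. Of the 485 genes higher in all endothelial barcodes, 63 were also among the 124, which is 12.99% of the first list and 50.8% of the second.

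*Cxcl9* had the highest venular ratio, 12.3 (10.4 to 14.5), at 1765 against 144 CPM. *Cxcl10* followed at 8.73 (6.64 to 11.7) and *Ehd3* at 7.97 (5.37 to 12.3). The next 12, named after their values were seen, were *Serpina3g* (5.55), *AA467197* (5.54), *Rasgef1b* (5.50), *F830016B08Rik* (5.23), *Kit* (4.98), *Tns3* (4.91), *Pdgfa* (4.87), *Fjx1* (4.53), *Serping1* (4.48), *Cfb* (4.44), *Ms4a4d* (4.25) and *Enpp2* (4.17). *Serping1* encodes the C1 inhibitor and *Cfb* complement factor B, both of the complement system. Of these 15 genes, 10 had a promoter in the RefSeq table. The κB consensus was in 2 of the 10 (7.25% of all promoters) and the IRF half-site in 2 (21.3%). TTCNNNGAA was in 1 (7.02%) and the response element core in 1 (2.98%). *Cxcl10*, *Serpina3g* and *Ms4a4d* held all of these matches, and the counts were not tested. At the other end stood *Itih5* (0.06), *Nebl* (0.09), the amino acid transporters *Slc7a5* (0.09) and *Slc7a1* (0.09), *Pltp* (0.09), *Fmo2* (0.11), the metallothionein *Mt1* (0.12), *Pcp4l1* (0.13), *Atp10a* (0.13) and *Fmo1* (0.13). Some of these ratios rested on few cells. *Nebl* was found in 3 cells with and 6 without *Ubd*. A single cell held 58.6% of the *Itih5* UMIs with *Ubd*, and another 66.7% of the *Enpp2* UMIs without. *Car4* itself stood at 5.0 CPM with and 77.1 CPM without *Ubd*.

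*Cxcl9* was also found in far more of the cells with *Ubd*. It was present in 70 of the 74 venular-like cells with *Ubd* and in 27 of the 106 without, and after thinning to 1000 UMIs in 38 and 10 of them, or 51.4% and 9.43%. *Gbp2*, an interferon-induced GTPase, was found after thinning in 62.2% and 28.3%, *Cd74* in 77.0% and 34.0%, and *Igtp* in 41.9% and 13.2%. *Selp* stood at 33.8% and 26.4%, and the interferon-induced modifier *Isg15* at 18.9% and 15.1%.

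By role, the list counts below stand beside shares over all tested genes of 1.85% higher and 3.8% lower within venular-like cells. Of the proteins that handle FAT10, 0 of the 5 tested of 7 were 2-fold different: *Uba6* had a ratio of 1.15, *Ube2z* 1.0, *Nub1* 1.26, the proteasome subunit *Psmd4* 1.18 and the autophagy receptor *Sqstm1* 1.38. *Hdac6* and *Mad2l1*, proteins reported to bind FAT10, had too few UMIs, at 11.9 against 13.9 CPM and 8.75 against 5.58 CPM. Of the other ubiquitin and ubiquitin-like genes (*Ubb*, *Rps27a*, *Fau* and 10 more), 0 of 12 tested passed 2-fold, with a median of 1.12. Between conditions, *Uba6* had 32.4 CPM in CFA and 25.4 in PBS endothelial-like cells, *Ube2z* 49.8 and 56.0, *Sqstm1* 235 and 220, and *Mad2l1* 4.50 and 3.92, each with overlapping intervals. *Nub1* (63.7 and 47.5 CPM) and *Hdac6* (10.7 and 5.96) were higher in CFA and *Psmd4* (77.7 and 95.6) lower, with separate intervals and less than 2-fold.

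Among antigen presentation genes, all 6 tested MHC class II genes were over 2-fold higher in venular-like cells with *Ubd*, with a median of 2.79: *Cd74*, the invariant chain, stood at 2072 against 677 CPM, *H2-Eb1* at 460 against 164 and *H2-Aa* at 438 against 158. Of the MHC class I genes 0 of 8 passed 2-fold, although all 8 ratios were above 1, with a median of 1.35; *H2-K1* had 1.39, *B2m* 1.42 and *H2-D1* 1.28. Of the immunoproteasome and peptide-loading genes 1 of 10 passed, the peptide transporter *Tap1* at 2.39 (1.96 to 2.93), and the median was 1.41; *Psmb8* had 1.60, *Tapbp* 1.42 and *Psme1* 1.45.

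Members of the interferon-induced GTPase families and of MHC class I have near-identical copies, between which reads can be split, so single members are uncertain. Of the guanylate-binding proteins 3 of 9 passed 2-fold, with a median of 1.75, and *Gbp2* had 2.52 (2.26 to 2.81), *Gbp4* 1.63 and *Gbp7* 1.67. Of the immunity-related GTPases 2 of 8 passed, with a median of 1.42, and *Gm4951* had 3.80, *Igtp* 1.99 and *Iigp1* 1.08. Among the interferon signalling genes, *Irf8* had 2.22 (1.63 to 3.06), *Jak1* 1.105 and *Irf1* 0.57. The type I interferon genes gave 0 of 13, with a median of 1.11; *Bst2* had 1.66, *Rsad2* 1.07 and *Ifi27l2a* 0.53.

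Adhesion genes and NF-κB targets gave unlike values in the endothelial and the venular comparison. Over all endothelial barcodes, 5 of 8 tested adhesion genes were at least 2-fold higher with *Ubd* (5.58% of all genes tested), with a median of 2.87, among them *Selp* (P-selectin, 7.47), *Vcam1* (7.07) and *Sele* (E-selectin, 5.79). Within venular-like cells 0 of 8 passed, with a median of 1.11: *Selp* had 1.16, *Vcam1* 1.78, *Icam1* 1.07 and *Sele* 0.78. The 3 adhesion genes with the most UMIs were *Podxl*, *Jam2* and *Cd34*, whose ratios were 0.90, 0.95 and 2.94 over all endothelial barcodes and 0.76, 0.80 and 1.30 within venular-like cells. Of the NF-κB targets 0 of 11 passed in venular-like cells, with a median of 0.896, and *Nfkbia* had 0.86, *Cxcl2* 0.88 and *Nfkb1* 1.53. Over all endothelial barcodes 0 of 14 were higher and 6 lower, *Cxcl2* among them at 0.14, beside the higher leukocyte markers of the barcodes without *Ubd*.

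Vessel-wall and growth genes gave further differences within venular-like cells. Of the junction genes 2 of 7 were over 2-fold lower with *Ubd*, the tight junction gene *Cldn5* at 0.32 (0.27 to 0.37) and *Jam3* at 0.30, while *Pecam1* had 1.22, *Cdh5* 1.21 and *Tjp1* 0.54. Of the angiogenic tip genes 1 of 3 tested passed, *Angpt2*, a vessel-destabilizing ligand of TIE2, at 3.68, and *Dll4* had 0.64. Immediate-early genes had a median of 0.644, and 1 of 10 was at least 2-fold lower; *Fos* had 0.65, *Jun* 0.69 and *Junb* 0.63. Of the cell cycle genes 0 of 4 tested passed, with *Pcna* at 1.01, *Top2a* at 1.80 and *Mki67* at 1.66. The checkpoint ligands *Cd274* and *Cd47*, the 2 tested, had 1.49 and 1.29.

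**Figure D4:**
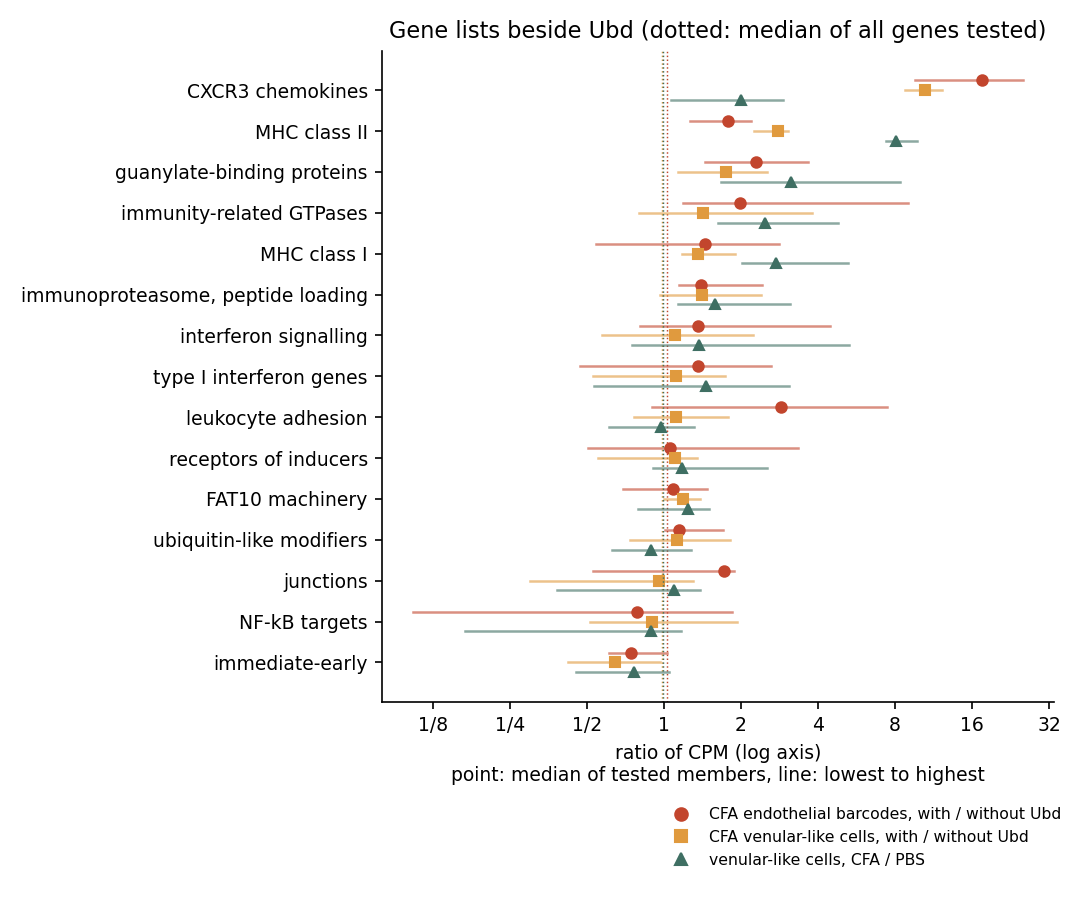
Ratio of CPM on a log axis for the tested members of each gene list, where the point is the median and the line runs from the lowest to the highest member. Red circles compare CFA endothelial barcodes with and without *Ubd*, orange squares the same split in venular-like cells, and green triangles CFA with PBS venular-like cells; dotted lines mark the medians of all genes. The CXCR3 chemokines lie farthest right in both splits (medians 17.5 and 10.5), and the MHC class II genes farthest right between the conditions (8.05).

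Several of these genes also went along with the number of *Ubd* UMIs in a cell. In CFA venular-like cells with 0, 1 to 4, 5 to 19 and 20 or more *Ubd* UMIs, *Cxcl9* stood at 144, 288, 816 and 2725 CPM. *Gbp2* stood at 384, 623, 702 and 1206 CPM over the same 4 groups, *Tap1* at 118, 182, 216 and 347, and *Ehd3* at 25.1, 94.1, 178 and 249. *Cd74* took its largest step between 0 and 1 to 4 UMIs, at 677, 1858, 1950 and 2205 CPM. *Flt1* (VEGF receptor 1) went down, at 2707, 1861, 1753 and 1316 CPM. *Selp* stood at 575, 517, 683 and 714 CPM, with the first and last intervals apart, and *Nub1* had overlapping intervals in all 4 groups. *Cxcl10* and *Ackr1* had no single direction, at 52.0, 256, 97.2 and 678 CPM and at 104, 194, 672 and 350 CPM. Median depth rose along these groups as well, from 8022.5 to 17359, 18319 and 23555.5 UMIs, and its part was not tested.

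**Figure D5:**
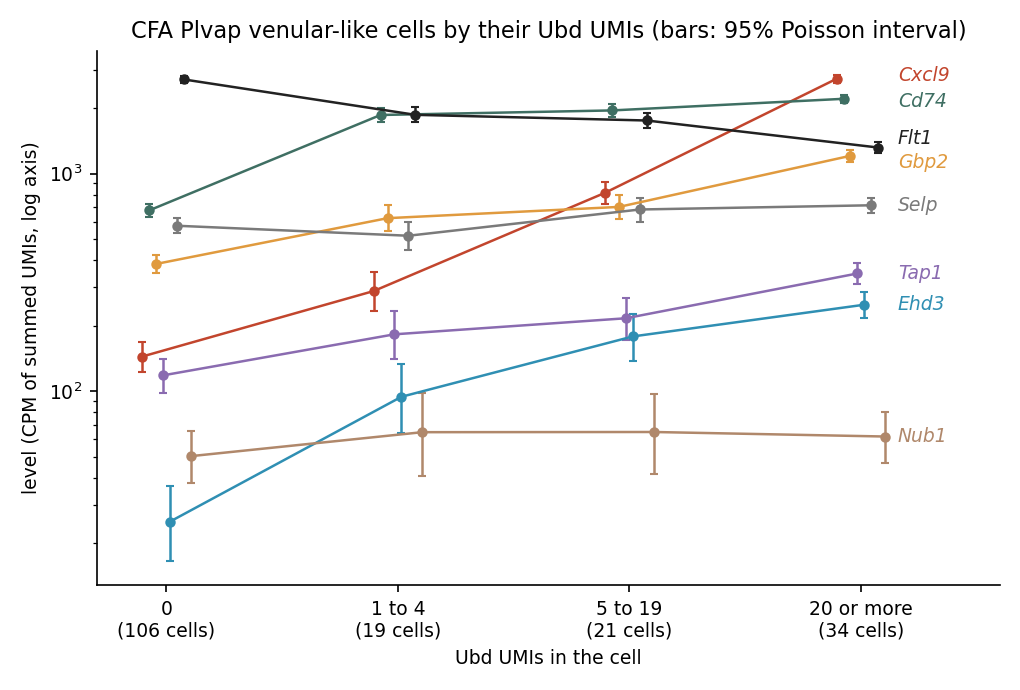
Level (CPM of summed UMIs, log axis, 95% Poisson intervals) of 8 genes in CFA *Plvap* venular-like cells grouped by their *Ubd* UMIs, with 106, 19, 21 and 34 cells from left to right. *Cxcl9* goes from 144 to 2725 CPM and *Flt1* from 2707 to 1316 CPM, while *Nub1* stays between 50.2 and 64.8 CPM.

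The PBS endothelial barcodes with *Ubd* were too few for more than a side view. Of 2168 genes, 208 (9.59%) were at least 2-fold higher in the 11 barcodes with *Ubd* than in the 980 without and 49 (2.26%) at least 2-fold lower. *Cxcl9* had a ratio of 40.0, *Cxcl10* 30.8 and *Cd74* 20.7. All 4 tested MHC class II genes were over 2-fold higher, with a median of 15.4, as were 4 of 5 guanylate-binding genes. These barcodes held more fibroblast (4158 against 2654 CPM) and tenocyte (847 against 89.3 CPM) marker RNA, the part of which was not tested.

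Venular-like cells were also compared between the libraries, over genes with at least 20 UMIs in each set. Genes with fewer UMIs in PBS cells, such as *Serpina3g* and *Fjx1*, had no ratio. Of 7639 genes, 180 (2.36%) were at least 2-fold higher in CFA and 275 (3.6%) at least 2-fold lower. Of these, 0 had a ratio above the 22.2 of *Ubd*, but *Ubd* was chosen for this contrast, so its rank is not a result. The next genes were *H2-Eb1* (9.76), the neuropeptide gene *Nts* (9.58), *Tacr1*, the substance P receptor (8.89), *Cd74* (8.39), *Gbp4* (8.36) and *Ehd3* (8.08). All 4 tested MHC class II and all 8 tested MHC class I genes were over 2-fold higher, with medians of 8.05 and 2.73, as were 7 of 8 guanylate-binding genes (median 3.12) and 6 of 8 immunity-related GTPases (median 2.48). *Cxcl9* had 2.93, but *Cxcl10* 1.06, and 0 of 8 adhesion genes passed. These ratios and those of the split by *Ubd* share the CFA venular-like cells, and the fibroblast and mural RNA of the PBS cells given above stands beside them.

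In the CFA library, transcripts of the known inducers of *Ubd* lay mostly outside the endothelial barcodes. *Ifng* had 258 UMIs in the kept CFA and 2 in the kept PBS cells, and 198 of the CFA UMIs lay in unnamed cluster 23, led by *Siglech*, *Stat4* and *Flt3*. *Tnf* had 2799 and 245 UMIs, with 977 of the CFA UMIs in osteoclast-like cells, and *Il1b* 32013 and 1163, with 10229 in those cells. Their levels were higher in other CFA classes: *Tnf* stood at 186 CPM in neutrophil-like, 167 in macrophage-like and 104 in osteoclast-like cells, and *Il1b* at 2852, 2157 and 1084 CPM. *Il6* had 2063 and 891, *Ltb* 658 and 145, *Il18* 662 and 183, *Lta* 14 and 3, and *Ifnb1* 1 and 0. The CFA endothelial barcodes, some of them outside the endothelial-like clusters, held 30 *Ifng*, 444 *Tnf*, 3961 *Il1b* and 474 *Il6* UMIs. They also held 140 *Ltb*, 71 *Il18*, 2 *Lta* and 0 *Ifnb1* UMIs. In those with and without *Ubd*, *Ifng* stood at 0 and 2.76 CPM and *Tnf* at 8.72 and 39.3. *Il1b* stood at 52.9 and 355 CPM there, and *Il6* at 28.7 and 38.5. Endothelial-like cells, named by cluster, held 0 *Ifng* UMIs in either library, and 15 CFA and 48 PBS *Tnf* UMIs. They held receptors of these cytokines: *Ifngr1* stood at 202 CPM in CFA and 186 in PBS, *Ifngr2* at 21.8 and 22.1, and *Tnfrsf1a* at 122 and 124. Of the 10 receptor genes, 4 were higher in CFA with separate intervals: *Il1r1* at 147 against 44.8 CPM, *Il6ra* at 12.05 against 3.41, *Tnfrsf1b* at 32.1 against 17.9 and *Il6st* at 368 against 279. *Ifnar2* was lower, at 173 against 196 CPM. Within venular-like cells 0 of 9 tested receptor genes differed 2-fold by *Ubd*, with *Il6st* at 1.13, *Ifnar2* at 1.14 and *Ifngr1* at 1.11. Because the immune cells were reduced before loading, the cytokine counts do not measure the joint.

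Across 22 profiles, 1 for each class of at least 50 cells in each library, the genes most like *Ubd* by Pearson's r of log2(CPM + 10) among 8517 genes were *Tmem252* (0.92), *Fam167b* (0.86), *Tacr1* (0.86), *Sox18* (0.86), *Gja5* (0.85), *D5Ertd615e* (0.84), *Wars* (0.83), *Gbp4* (0.82), *Acer2* (0.81) and *Selp* (0.81). The profiles share libraries, depth and free RNA. *Tmem252* stood at 262 CPM in CFA and 37.3 CPM in PBS endothelial-like cells and at most 7.98 CPM elsewhere. The order depended on the measure, since 6 of these 10 stayed with a pseudocount of 1 CPM, 2 with the CFA library alone and 1, *Gbp4*, with Spearman's rho.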

How the data were processed

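Filtered feature-barcode matrices of 1 PBS and 1 CFA library were used, which hold raw UMI counts per gene and barcode as deposited by the authors. Per the labels these were made with Cell Ranger 7.0.1 on mm10. The labels and the paper's methods name different kit versions and digestion enzymes, and the number of cells the study states for the CFA library exceeds its 5709 deposited barcodes. *Cxcl11*, *Gbp11*, *Gm12250*, *Mx1* and *Mx2* were not analysed here. *Ubd*, the gene lists and the rules were chosen with earlier results of these data known.

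Kept barcodes (27201994 PBS and 44432717 CFA UMIs) were clustered with Seurat 5.3.0 (SCTransform, sctransform 0.4.2, 3000 integration genes without *Ubd*, 200 principal components, resolution 1.5) in R 4.3.3. This gave 36 clusters, of which 27 were named from at least 3 detected markers and 9 were not. Doublets were kept: Scrublet (Scanpy 1.11.5) marked only 21 PBS and 2 CFA cells by its own threshold, so its top 5% of scores in each library were left out as an alternative. Sums, intervals and ratios were computed in Python 3.11.15 (numpy 2.4.6, scipy 1.17.1, pandas 2.3.3). Genes entered a ratio with at least 20 UMIs in each set, and called means a ratio past 2-fold. With 1 library in each condition no test was run. The script for the ratios was tested on simulated data. Random thinning used seed 1.

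Genes were named by a fixed rule: every member of the FAT10 machinery, cytokine and CXCR3 chemokine lists, the 3 members of each other list with the most UMIs in CFA endothelial barcodes (the interferon signalling, checkpoint ligand and angiogenic tip lists are reported here only in part), the 15 highest and 10 lowest ratios over CFA endothelial barcodes (without mitochondrial, ribosomal protein, hemoglobin and immunoglobulin genes) and the 10 genes most like *Ubd*. Other list members, the venular-like extremes, the genes of the comparison between libraries and the single barcodes outside the venular-like cells were chosen after their values were seen. Venular-like cells of 8000 to 40000 UMIs, sets without stromal or high barcodes, and profiles split by endothelial cluster were alternatives chosen after seeing the data.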

Additional observations from a re-analysis of the deposited data

Results flagged for a closer look

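Barcodes that the limits on genes, mitochondrial and hemoglobin UMIs left out also held *Ubd* in the CFA library, which lies outside the cells compared. The 1695 barcodes left out held 292 *Ubd* UMIs in 30 barcodes, a level of 32.1 CPM (28.6 to 36.05), against 1.59 CPM (1.12 to 2.18) with 38 UMIs in 12 of the 5004 PBS barcodes left out. Of the CFA barcodes left out, 114 met the endothelial rule and held 269 of these UMIs in 12 barcodes, or 313 CPM (276 to 352), and 1 barcode held 142. In PBS, 1250 of the barcodes left out met the rule, against 991 kept, and 1213 of them exceeded the hemoglobin limit. These 1250 held 7 *Ubd* UMIs in 6 barcodes, or 1.27 CPM (0.510 to 2.61), against 7.01 CPM in those kept.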

How the results depend on the processing

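Of 70 alternative values, 38 stayed within the counting interval or within 1.5 times the count, 32 moved and 0 reversed. The CFA to PBS ratio of *Ubd* in endothelial barcodes, 30.4, was 44.8 without the hemoglobin limit, 45.0 over every deposited barcode, 45.9 without the top 5% of doublet scores and 41.3 at 1000 UMIs per barcode (119 and 2 UMIs). It was 48.7 without the barcode with the most *Ubd* UMIs in each library, 123 without barcodes of 10 or more stromal UMIs and 22.2 in venular-like cells, these 3 chosen after seeing the data. Thinning to 1000 and 2000 UMIs gave shares of 3.56% and 5.23% in CFA and 0.205% and 0.540% in PBS. The ratio of endothelial-like cells to the next class, 14.1, was 115 without the top doublet scores (next class B cell-like, 2 UMIs) and 58.4 without other-class barcodes of 3 or more endothelial UMIs. The 0.5% hemoglobin limit was applied without clustering again.

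The counts of genes higher and lower with *Ubd*, 485 and 600, moved with the cells compared, their depth and the genes tested, whose parts were not told apart: 160 and 50 of 1023 after thinning, 154 and 31 of 951 at 2000 to 8000 UMIs, 124 and 255 of 6716 in venular-like cells, 90 and 217 of 5652 in those of 8000 to 40000 UMIs, 84 and 22 of 749 in *Car4* capillary-like cells, and 208 and 49 of 2168 in PBS. With at least 50 UMIs in each set 291 were lower. Without barcodes of 2 or more immune-marker UMIs, a list that holds *Ebf1* and *Kit*, which endothelium also expresses, 4 and 52 barcodes were left and 106 and 3 of 119 genes passed. Of the 10 genes most like *Ubd*, 6 stayed with a pseudocount of 1 CPM, 2 in CFA alone, 1 with Spearman's rho and 3 with profiles split by endothelial cluster. No paired analysis was possible because each condition is 1 library and no test was run. Each library pools 3 mice, so differences between mice, injections and loadings cannot be told apart from the condition, and the PBS values rest on 65 endothelial *Ubd* UMIs.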
